A study of Mus musculus with 6 samples.

Results

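The values below are those of 3 long non-coding RNAs (lncRNAs), n297308, n297428 and FR384764, in the aortas of mice fed a normal or a high-fat diet. Each was read by 1 probe, out of 91188 probes on the array, 51758 of which carry lncRNA probe names. They were taken by name from the 168 lncRNAs that the study lists as up-regulated on the high-fat diet, and that list was drawn from the same 6 arrays. The difference between the diets is therefore what chose these lncRNAs, and it is given as a description. Where the study's listing criteria, which include a p-value, are counted below, the counts say how the lncRNAs came to be listed and test nothing about them. The label under which they were chosen calls them detected. This held on all 6 arrays for n297308 and n297428 and on 5 arrays for FR384764.

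The animals were male mice homozygous for apoE(-/-) on the C57BL/6 background, and their ages are not given in the sources used here. The arrays hold 3 mice fed the normal diet and 3 fed the high-fat diet. The study picked them at random from larger groups. Feeding lasted 8 weeks, with normal chow in one group and in the other a diet of 20% fat and 2.5% cholesterol. All 6 animals lack Apoe, so every value below is that of an Apoe-deficient aorta, and no array of a wild-type aorta was analysed here. Total RNA of the aorta of each mouse was labelled with cyanine 3 and read on 1 array of its own. Since whole aortas were used, fewer cells of a type and less RNA per cell cannot be told apart.

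lncRNAs are transcripts without a long open reading frame, and many are spliced and polyadenylated in the way mRNAs are. They can act on chromatin, on the stability of other RNAs or as decoys for proteins, and for most of them no function is known. ApoE clears remnant lipoproteins from the blood, and mice without it develop atherosclerotic lesions in the aorta, faster on a diet rich in fat and cholesterol. Such lesions take up macrophages that load lipid, while the smooth muscle of the wall changes its own gene expression.

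The probes are shown first because the sequence of one of them decides what its signal can be taken to measure. Each is 60 bases long and is written as the scanner output lists it.
n297308: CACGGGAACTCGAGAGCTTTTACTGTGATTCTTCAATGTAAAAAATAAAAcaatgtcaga
n297428: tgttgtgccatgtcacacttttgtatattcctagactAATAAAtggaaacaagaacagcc
FR384764: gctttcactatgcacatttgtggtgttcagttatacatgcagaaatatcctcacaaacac
In the n297308 probe the capitals mark 50 bases, from base 1 to base 50, that also stand on the same strand in a probe which the study's mRNA list names Nrp2, at bases 11 to 60 of that probe. Nrp2 is neuropilin 2, a receptor for semaphorins and for vascular endothelial growth factors. The next longest run that the n297308 probe shared with any other probe was 16 bases. A transcript that holds this stretch can bind either probe, so the signal of n297308 and that of such an Nrp2 transcript cannot be told apart here. The longest run shared with another probe was 15 bases for n297428 and 14 bases for FR384764.

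In the n297428 probe the capitals mark AATAAA, the usual signal for cleavage and polyadenylation, at bases 38 to 43. The n297308 probe holds the same 6 letters at bases 44 to 49, inside the stretch it shares with Nrp2, and the FR384764 probe does not hold them. As written on the probe, AATAAA stood in 10.9% of all probes, in 9.61% of lncRNA probes and in 15.5% of the listed up-regulated lncRNAs, and on either strand in 14.5% of all probes. The GC content of the probes was 35% for n297308, 36.7% for n297428 and 38.3% for FR384764, against a median of 41.7% over all probes. The study lists n297308 and n297428 as mRNA-like lncRNAs and FR384764 as ncRNA. The scanner output gives no mapped position for any of the 3 probes, so their place in the genome is not given here.

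The arrays lay on 2 slides, and the slides were not balanced between the diets. Slide 1 held normal diet replicates 1 and 3, and slide 2 held normal diet replicate 2 with all 3 high-fat diet arrays. Negative control spots had a median net signal of 31.5 and 32.3 on slide 1, against 12.9 to 13.8 on slide 2. Between 62.6% and 64.4% of probes were detected on slide 1 and between 72.4% and 76.0% on slide 2. A difference between the diets is therefore also given within slide 2, where normal diet replicate 2 is the only normal diet array. Detection on an array means that a share of 0.5 or more of the spots of a probe passed the scanner's flags, which ask for a positive and significant signal well above background that is no outlier. No spot was saturated.

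n297428 was the brightest of the 3. Its background-subtracted signal, in the scanner's intensity units and before normalization, was 1871, 2264 and 2233 on the normal diet and 3516, 5127 and 7072 on the high-fat diet, with values here and below in the order of replicates 1, 2 and 3. All 3 high-fat diet arrays were brighter than all 3 normal diet arrays, and high-fat diet replicate 3 stood above the rest. After quantile normalization the log2 signal was 10.98, 11.07 and 11.36 on the normal diet and 11.86, 12.04 and 12.69 on the high-fat diet. The diet means were 11.14 ± 0.20 and 12.20 ± 0.44 (SD, n = 3 each). They differed by 1.06 on the log2 scale with a standard error of 0.25, a 2.08-fold difference. The lowest high-fat diet array lay 0.50 above the highest normal diet array. The difference was below 2-fold when high-fat diet replicate 3 was left out (0.81) and when normal diet replicate 1 was (0.98).

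n297308 had a signal of 235, 213 and 245 on the normal diet and 471, 760 and 679 on the high-fat diet. Here too the diets did not overlap, and normal diet replicate 2 was the dimmest array. The normalized log2 signal was 8.00, 7.68 and 8.16 on the normal diet (mean 7.95 ± 0.24, SD, n = 3). On the high-fat diet it was 8.98, 9.26 and 9.37 (mean 9.20 ± 0.20, SD, n = 3). The means differed by 1.26 on the log2 scale with a standard error of 0.20, which is 2.39-fold, and the gap between the groups was 0.82. These are the values of a probe that an Nrp2 transcript can also bind.

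FR384764 was the dimmest of the 3, with a signal of 13.0, 12.3 and 13.0 on the normal diet and 24.3, 38.4 and 36.6 on the high-fat diet. The 3 normal diet arrays lay close together and below all high-fat diet arrays. The normalized log2 signal was 3.96, 3.61 and 3.86 on the normal diet (mean 3.81 ± 0.18, SD, n = 3) and 4.67, 4.88 and 5.11 on the high-fat diet (mean 4.89 ± 0.22, SD, n = 3). The difference was 1.08 on the log2 scale with a standard error of 0.19, or 2.11-fold, with a gap of 0.70 between the groups. On normal diet replicate 3 the probe was not detected, since neither of its spots, at 11.9 and 14.2, was flagged well above background. The lowest single spot so flagged on that array was at 13.9. The difference was below 2-fold when normal diet replicate 2 was left out (0.98), when high-fat diet replicate 3 was (0.96) and after the normexp background correction described below (0.28).

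**Figure D1:**
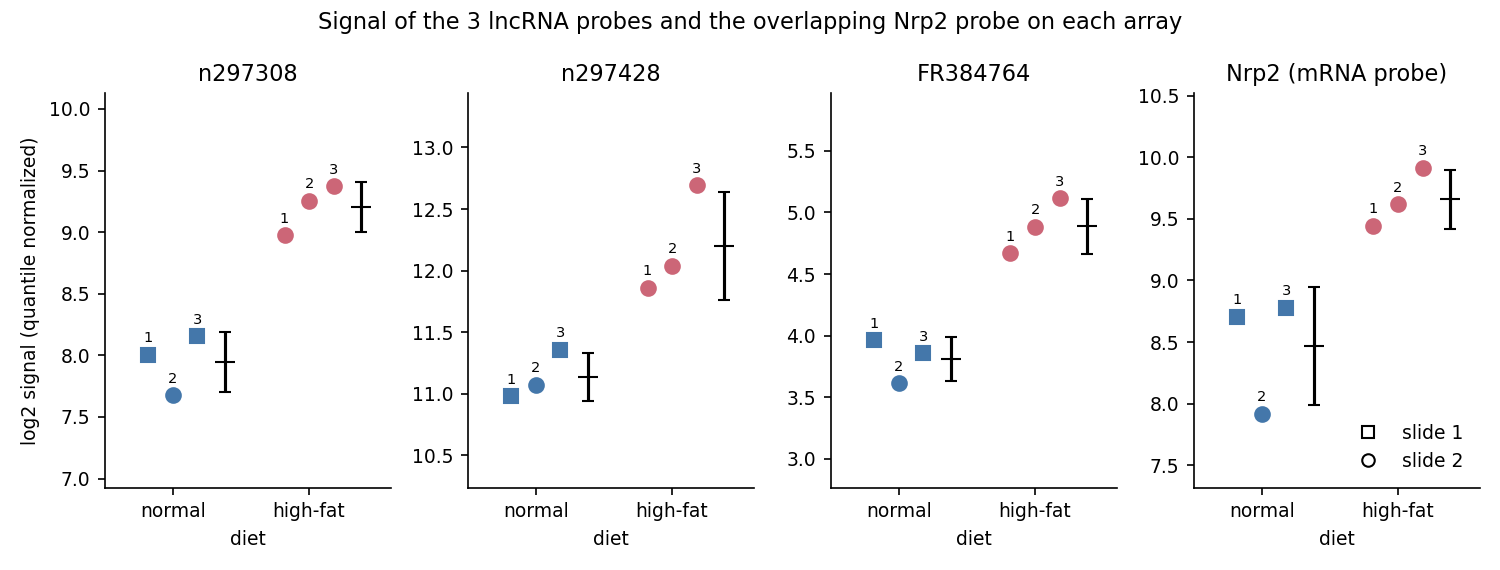
Normalized log2 signal of n297308, n297428 and FR384764 and of the Nrp2 probe on each of the 6 arrays, by diet, with squares for slide 1, circles for slide 2, and the mean and SD of each diet beside the points. In all 4 panels every high-fat diet array lies above every normal diet array, and the levels run from 3.61 for FR384764 to 12.69 for n297428.

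All 3 lncRNAs met the criteria by which the study lists a probe, an unadjusted p of at most 0.05 and a difference of at least 2-fold, when the limma fit across all probes was used. The same criteria were met in the higher direction by 2.13% of the 64467 probes kept by the filter on detection and by 2.06% of the 35127 lncRNA probes among them. The high-fat diet arrays all lay above the normal diet arrays for 8.87% of kept probes and 7.37% of kept lncRNA probes. Nothing is read from these shares for the 3 lncRNAs, since the contrast chose them. After Benjamini-Hochberg adjustment over all kept probes, 1 probe in limma's fit had an adjusted p under 0.05, and it was none of the 3. Without normal diet replicate 2, the normal diet array on slide 2, that count was 8655. Slide and diet cannot be told apart in that fit. With the slide as a block, 3 of 3 met the criteria, against 1.64% of kept probes and 1% of kept lncRNA probes. By the methods' t-test, 3 of 3 met them, against 0.557% and 0.424%. With a normexp background correction, which models the background and here adds an offset of 50 to every signal, 2 of 3 met them, against 0.315% and 0.228%.

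Ranked by brightness among all 91188 probes of an array, with rank 1 the brightest, n297428 stood between ranks 2962 and 3642 on the normal diet and between ranks 1324 and 2210 on the high-fat diet. Its percentile, the share of probes that were dimmer, went from 96.0 to 96.8 on the normal diet arrays and from 97.6 to 98.5 on the high-fat diet arrays. n297308 held ranks 16490, 19009 and 15394 on the normal diet and ranks 10441, 9073 and 8541 on the high-fat diet. Its percentiles were 81.9, 79.2 and 83.1 and then 88.6, 90.1 and 90.6. FR384764 held ranks 56891, 60566 and 58020 on the normal diet and ranks 49192, 46737 and 44168 on the high-fat diet. At percentiles of 37.6, 33.6 and 36.4 and then 46.1, 48.7 and 51.6, FR384764 was dimmer than most probes on every array but high-fat diet replicate 3. The order n297428, n297308, FR384764 was the same on all 6 arrays. It is an order of probe brightness, and probes bind with different strength, so it is not an order of transcript abundance.

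**Figure D2:**
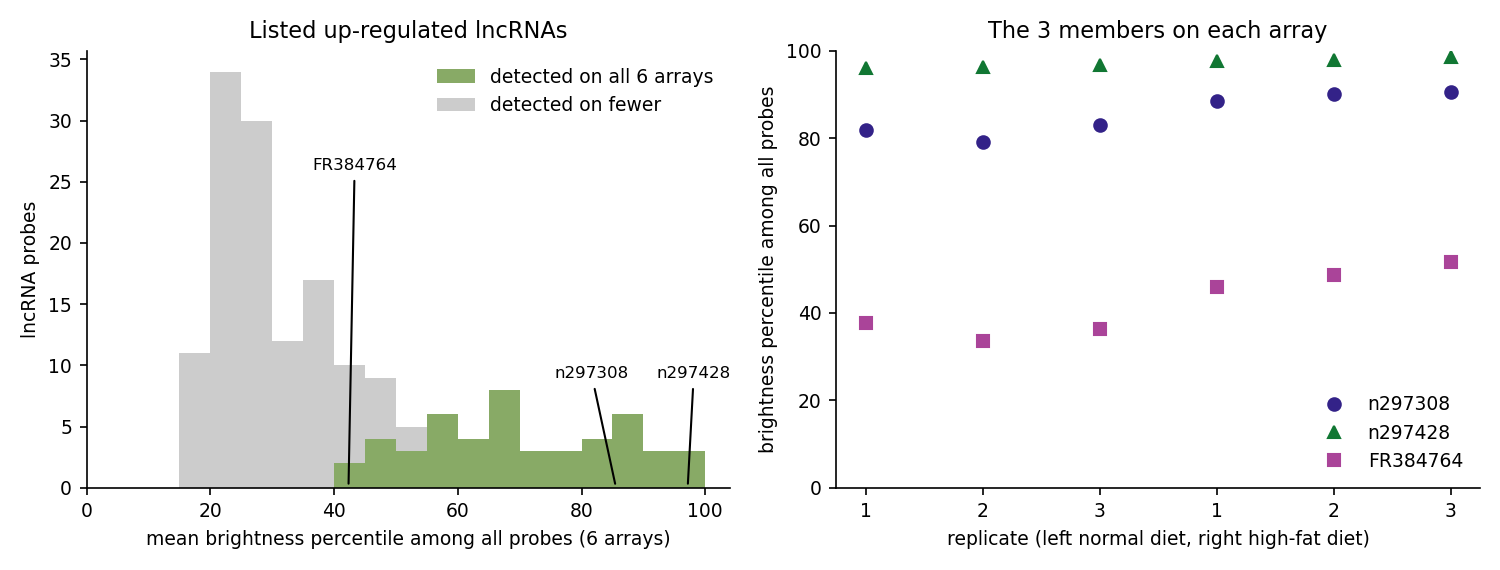
Left, the mean brightness percentile over the 6 arrays of the 168 listed up-regulated lncRNAs, in stacked bars by detection on all 6 arrays or on fewer, with the 3 lncRNAs pointed out. Right, the percentile of each of the 3 on each array among 91188 probes, with the normal diet arrays on the left, where n297428 lies above 96 throughout and FR384764 between 33.6 and 51.6.

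Each of the 3 probes stands on the array in 2 spots, so the spread between spots can be set beside the spread between arrays. For n297428 the log2 signals of the 2 spots of an array differed by 0.016 to 0.21. For n297308 they differed by 0.15 to 0.35, and for FR384764 by 0.14 to 0.46. The SD of the mean of 2 spots that follows from this was 0.048 for n297428, 0.12 for n297308 and 0.17 for FR384764. The pooled SD between arrays of the same diet was 0.34, 0.22 and 0.20, in the same order. The spread between arrays holds labelling, hybridisation and slide as well as the animals, and these cannot be told apart.

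FR384764 was close to background. On the normal diet 1, 1 and 0 of its 2 spots were well above background on replicates 1, 2 and 3, and on each high-fat diet array both spots were. The lowest signal of any single spot called well above background was between 7.24 and 13.9 on the 6 arrays. The averages over the 2 FR384764 spots were 12.3 to 13.0 on the normal diet. The error that the scanner software gives for the signal was 24.1%, 19.5% and 27.8% of it on the normal diet and 12.6%, 11.3% and 11.1% on the high-fat diet, while for n297308 and n297428 it was near 10% on every array.

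Before any background was taken off, the mean signal of the FR384764 spots was 53.3, 33.6 and 55.0 on the normal diet and 45.1, 58.3 and 55.9 on the high-fat diet. These values overlapped between the diets. The 2 normal diet arrays on slide 1, the slide with the brighter negative controls, read above high-fat diet replicate 1, and normal diet replicate 2, on the same slide as the high-fat diet arrays, read lowest of all 6. With the unsubtracted signals quantile normalized the groups no longer overlapped, and the log2 difference was 0.45. With normexp it was 0.28. The offset of 50 is larger than every subtracted FR384764 signal, and adding it to the subtracted signals with no other change gave 0.32, while normexp with no offset gave 0.81. How much of the FR384764 difference follows from the background of the slides was not tested beyond these values. The study also measured some listed lncRNAs by qPCR, with primers given for FR384764 and n297428, and reports that the results matched its arrays. Those measurements are not among the values used here.

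**Figure D3:**
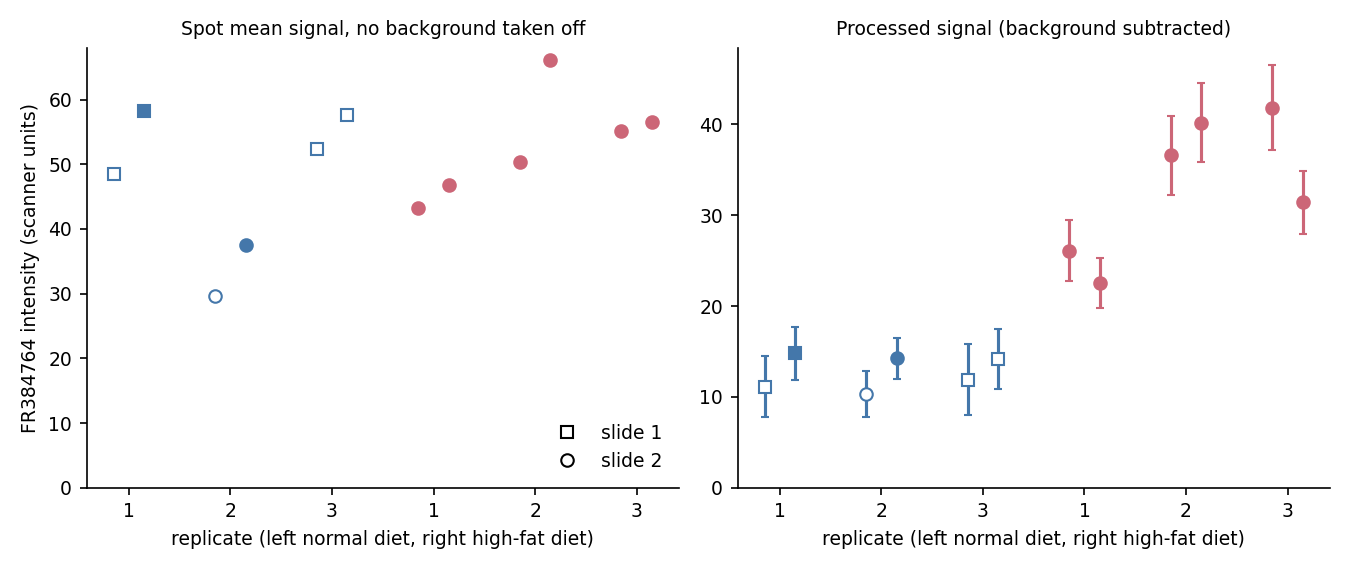
Signal of the single FR384764 spots on the 6 arrays, before background subtraction and after it, in intensity units, with squares for slide 1 and circles for slide 2. Filled symbols are spots well above background and open symbols spots that were not, and error bars are the scanner's error of the subtracted signal. Before subtraction the diets overlap, and after it the normal diet arrays average 12.3 to 13.0 and the high-fat diet arrays 24.3 to 38.4.

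Within slide 2, each high-fat diet array was brighter than normal diet replicate 2 for all 3 lncRNAs. For n297308 the log2 differences of high-fat diet replicates 1, 2 and 3 from that array were 1.30, 1.58 and 1.69. For n297428 they were 0.79, 0.97 and 1.62, and for FR384764 they were 1.05, 1.27 and 1.5. Fitting the slide as a block gave 1.52 with a standard error of 0.23 for n297308, 1.12 with a standard error of 0.36 for n297428 and 1.27 with a standard error of 0.23 for FR384764. All 3 were larger than without the block, and each rests on 1 normal diet array.

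**Figure D4:**
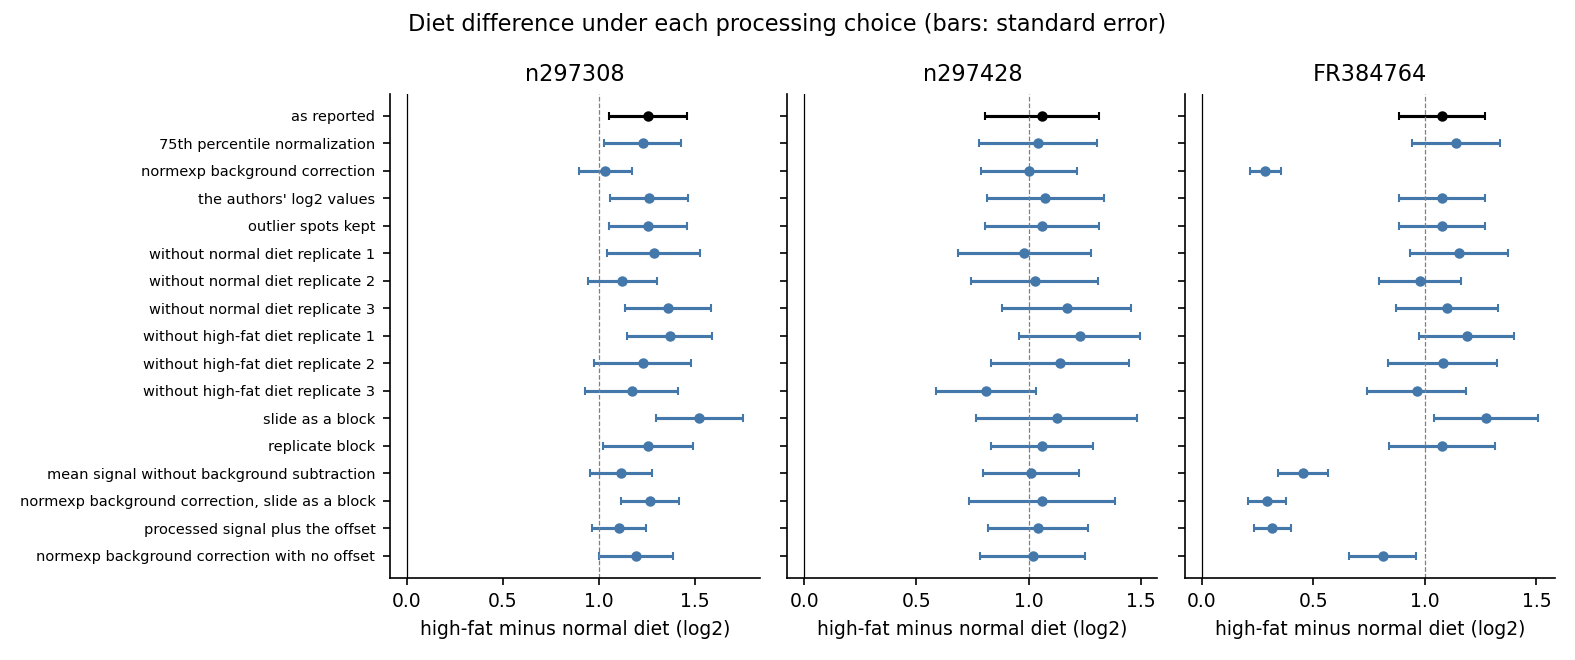
Log2 difference between the diets, high-fat minus normal, for the 3 lncRNAs under each way of processing the arrays, with the standard error as bars and a dashed line at 2-fold. n297308 and n297428 stay between 0.81 and 1.52, while FR384764 lies at 0.28, 0.29 and 0.32 where an offset of 50 was added, at 0.45 with no background taken off and at 0.81 with normexp and no offset.

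The Nrp2 probe followed n297308 closely. Its signal, from 1 spot per array, was 383, 251 and 378 on the normal diet and 652, 985 and 990 on the high-fat diet. As for n297308, normal diet replicate 2 was the dimmest array and the diets did not overlap. The normalized log2 signal went from 8.47 ± 0.48 to 9.66 ± 0.24 (SD, n = 3 each), a difference of 1.19 with a standard error of 0.27. The diet differences of the n297308 and Nrp2 probes were 0.064 apart. They were 0.204 apart without normal diet replicate 2, with n297308 the larger. With Nrp2 the larger, they were 0.216 apart with the slide as a block and 0.305 apart with normexp and the slide block together. Over the 6 arrays the 2 probes correlated with r = 0.973, and with the mean of each diet removed with r = 0.934. The study lists Nrp2 among its mRNAs on these arrays, so the Nrp2 difference is no independent evidence for that of n297308.

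Such pairs were not rare on this array. Of the 51758 lncRNA probes, 1365 (2.64%) shared at least 50 bases on the same strand with an mRNA probe, and 2663 (5.15%) shared at least 20 bases. Of the 168 listed up-regulated lncRNAs, 7 and 13 did. Over 816 such pairs with at least 50 shared bases and both probes kept, the diet differences of the 2 probes were a median of 0.166 apart on the log2 scale, with 0.559 at the 90th percentile, and the median r over the 6 arrays was 0.829. With all 6 arrays and no block, the n297308 and Nrp2 probes were closer than that median on both measures. Both were listed by the study for a diet difference on these arrays, which by itself brings them close. The 816 pairs were filtered on detection only, so nothing is read from this comparison.

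Among the 168 listed up-regulated lncRNAs, n297428 ranked 2 by mean level, n297308 ranked 11 and FR384764 ranked 59. By size of the diet difference they ranked 139, 84 and 132, so that n297308 stood near the middle of the list and the others in its lower part. With the slide as a block they ranked 47, 17 and 37, and after normexp they ranked 13, 10 and 70. The list as a whole was dim, with a median brightness percentile of 33.3. Of the 168, 49 (29.2%) were detected on all 6 arrays, and 68 (40.5%) were detected on no normal diet array. The median log2 difference of the list was 1.25, and it was 0.77 with the slide as a block and 0.23 after normexp, whose offset lowers the differences of dim probes. A difference of at least 1 after normexp was left for 13 of the 168, n297308 at 1.03 and n297428 at 1.00 among them. The study lists 15 of the 168 as mRNA-like, and 4 of these were detected on all 6 arrays, namely n297308, n297428, n292619 and n290305.

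After quantile normalization the 3 lncRNAs had the same order on the high-fat diet arrays. The log2 signal was highest on replicate 3 and lowest on replicate 1 for each, and the Nrp2 probe had this order too. Before normalization replicate 2 was the brightest for n297308 and FR384764 and replicate 3 for n297428, so the shared order was that of the normalized values. The same order was found, after normalization, for 18.1% of all kept probes and for 31 of the 168 listed up-regulated lncRNAs (18.5%). On the normal diet the order differed, with replicate 2 lowest for n297308, FR384764 and Nrp2 and replicate 1 lowest for n297428.

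Relative to its diet mean, n297308 deviated by 0.06, -0.27 and 0.21 on the normal diet and by -0.22, 0.05 and 0.17 on the high-fat diet, on the log2 scale. FR384764 deviated by 0.15, -0.20 and 0.05 and then by -0.22, -0.0047 and 0.23. n297428 deviated by -0.16, -0.07 and 0.22 and then by -0.34, -0.16 and 0.50. With the diet means removed in this way, r over the 6 arrays was 0.875 for n297308 with FR384764, 0.677 for n297308 with n297428 and 0.676 for n297428 with FR384764. The arrays share slides, labelling and normalization, so these values describe 6 arrays and carry no test.

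The pair of n297428 and FR384764 rested on single arrays. Its r was 0.203 when high-fat diet replicate 3 was left out and 0.946 when normal diet replicate 1 was. Leaving out one array at a time moved r between 0.486 and 0.871 for n297308 with n297428. For n297308 with FR384764 it stayed between 0.792 and 0.981. Over all 6 arrays with no mean removed, r was 0.938 to 0.990 for the 3 pairs, which the choice of 3 lncRNAs with the same diet difference builds in.

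**Figure D5:**
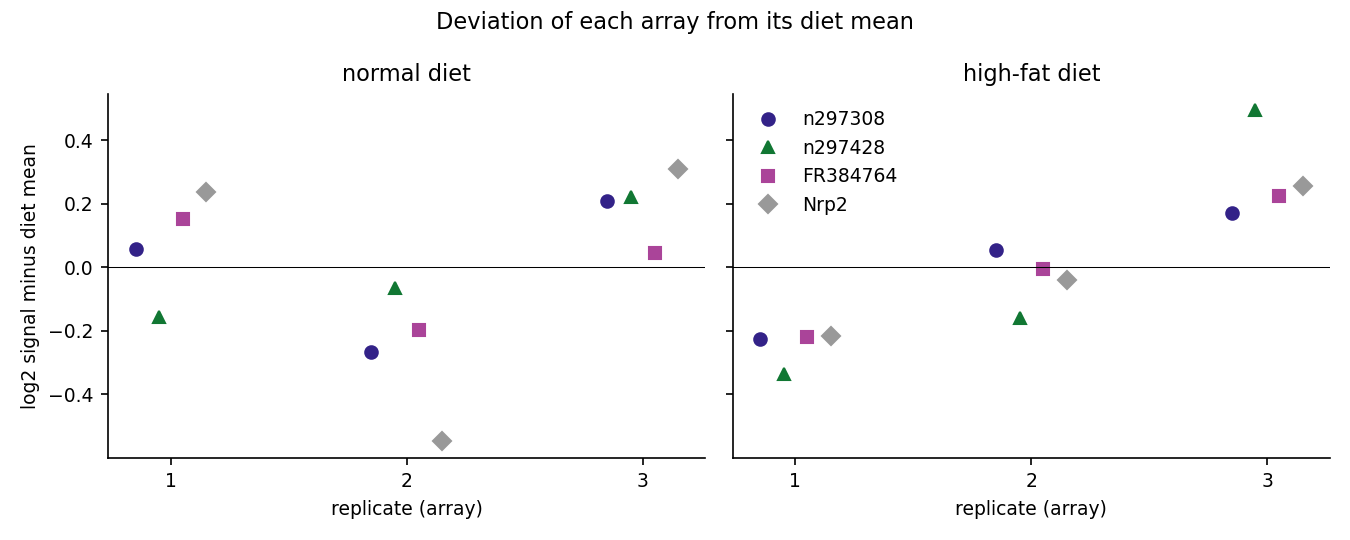
Deviation of the log2 signal of each array from the mean of its diet, for n297308, n297428, FR384764 and the Nrp2 probe, by replicate, with symbols set side by side for legibility. On the high-fat diet replicate 3 is highest for all 4, from 0.17 for n297308 to 0.50 for n297428, and on the normal diet the 4 do not share one order.

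Probes most like each lncRNA were sought by Pearson's r over the 6 arrays, among probes detected on all 6 arrays that the study's lists name. Every such name was itself chosen by the study for a diet difference on these arrays, which by itself makes r high. n297428 was most like Chchd10, a protein of the mitochondrial intermembrane space, with r = 0.993. The log2 signal of Chchd10 was 12.98, 12.94 and 13.17 on the normal diet and 13.80, 13.82 and 14.52 on the high-fat diet, with high-fat diet replicate 3 again above the rest. Next came Cpt2, the carnitine palmitoyltransferase of the inner mitochondrial membrane (r = 0.974), the lncRNA n415323 (r = 0.973), Etfdh, which passes electrons from fatty acid oxidation to the respiratory chain (r = 0.972), and Cpn2, a subunit of carboxypeptidase N (r = 0.971). With the diet means removed, Chchd10 was again first among the named probes, with r = 0.968. It was followed by Prkar2b, a regulatory subunit of protein kinase A (r = 0.906), Cpt2 (r = 0.905), Cpn2 (r = 0.903) and n415323 (r = 0.899).

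Among those named probes n297308 was most like Cpn2 (r = 0.984), Xaf1, an antagonist of the apoptosis inhibitor XIAP (r = 0.982), 1110008P14Rik (r = 0.980), the lncRNA FR060087 (r = 0.976) and Nrp2 (r = 0.973). FR384764 had a higher r with n297308 than any of these, 0.990, but was detected on 5 arrays and so was not among the probes searched. FR060087 and Xaf1 are a pair of the same kind as n297308 and Nrp2, with 54 bases shared between their probes. With the diet means removed, 4 of the 5 most alike were lower on the high-fat diet. They were Cdc42bpg, a kinase bound by the GTPase Cdc42 (r = 0.965, log2 difference -1.10), a lncRNA named by its RefSeq entry (r = 0.956, -1.13), FR168758 (r = 0.948, -1.13) and a lncRNA named by its genome position (r = 0.947, -1.16). The fifth, FR029539 (r = 0.939), was higher by 1.13.

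FR384764 was most like 1110008P14Rik (r = 0.991), n297308 itself (r = 0.990), the lncRNA FR167447 (r = 0.981), Cpn2 (r = 0.975) and Nrp2 (r = 0.966). With the diet means removed the lncRNA FR029539 was first among them (r = 0.940), followed by 1110008P14Rik (r = 0.925), a lncRNA named by its genome position (r = 0.907), FR167447 (r = 0.884) and 3110021A11Rik (r = 0.875). Here too the directions were mixed, since the position-named lncRNA (-1.39) and 3110021A11Rik (-1.66) had negative log2 differences between the diets. The log2 signal of 1110008P14Rik was 11.23, 10.99 and 11.13 on the normal diet and 12.12, 12.13 and 12.40 on the high-fat diet, at a level far from the background near which FR384764 lay.

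The named probes were not the most alike of all. Named or not, an r of at least 0.95 over the 6 arrays was reached by 200 probes (0.371% of those detected on all 6 arrays) for n297308, by 307 (0.57%) for n297428 and by 224 (0.416%) for FR384764. Probes more alike than the first named one numbered 14 for n297308, 12 for n297428 and 5 for FR384764. They numbered 321, 73 and 736 with the diet means removed.

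The study ties FR384764 to 3 mRNAs, which it chose on these arrays. Besides 1110008P14Rik, with a log2 difference of 1.09, they are Cma1, the chymase of mast cells, at 1.25, and Nln, the peptidase neurolysin, at 1.02. With the diet means removed, FR384764 correlated with Cma1 at r = 0.168 and with Nln at r = 0.368. Nln was detected on 1 of the 3 normal diet arrays. After normexp the log2 differences were 1.04 for 1110008P14Rik, 0.51 for Cma1 and 0.21 for Nln.

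It ties n297428 to 16 genes, of which 13 had a higher and 3 a lower mean on the high-fat diet. Acad11, an acyl-CoA dehydrogenase, differed by 1.21, Etfdh by 1.04 and Fabp3, a fatty acid binding protein of muscle, by 1.22 on the log2 scale. With the diet means removed, n297428 correlated with them at r = 0.653, r = 0.869 and r = 0.828, the highest of the 16 genes. Over the 13 genes with a higher mean, r ran from -0.089 to 0.869, and over the 3 with a lower mean from -0.414 to -0.362. For S100b, a calcium-binding protein, the log2 difference was 2.01 and r was 0.477. For Apln, the ligand of the apelin receptor, the log2 difference was 1.82, r was -0.089, and no normal diet array detected it. The genes that were lower were Anxa13 at -1.33, Bpifa1 at -2.94, which 1 of the 3 high-fat diet arrays detected, and Prtn3, a protease of neutrophil granules, at -1.08. After normexp the log2 differences were 1.26 for Acad11, 0.98 for Etfdh, 1.22 for Fabp3, 1.75 for S100b and 0.39 for Apln. For Anxa13, Bpifa1 and Prtn3 they were -0.97, -0.79 and -0.69.

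The gene lists could be read only where the study's lists name a probe. Every such name was chosen by the study for a diet difference on these arrays, so the differences below follow from that choice. They say nothing about the rest of each list. Of 15 genes of PPAR signalling and lipid handling, 2 were named, Fabp3 and Angptl4, an inhibitor of lipoprotein lipase, at a log2 difference of 1.33. Of 13 genes of oxidative phosphorylation 1 was named, Cox15 at 1.43 and detected on 1 of the 3 normal diet arrays, and of 11 lysosomal genes 1, the cathepsin Ctsz at 1.05. After normexp the differences were 1.22 for Fabp3, 1.27 for Angptl4, 0.27 for Cox15 and 1.01 for Ctsz. None of Apoe and the 3 transcription factors sought was named, so the Apoe deficiency was not checked here. Of 48 cell type markers 1 was named, the macrophage marker Cd68. Its log2 signal was 5.09, 4.38 and 5.94 on the normal diet and 6.87, 7.87 and 6.997 on the high-fat diet. The diets did not overlap, which was also so, in the same direction, for 8.87% of all kept probes. The Cd68 means were 2.11 apart, 2.87 with the slide as a block and 1.15 after normexp. The share of macrophages and of other cells in these aortas, and its part in the values of the 3 lncRNAs, was not tested.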

How the data were processed

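Each of the 6 aortas was hybridised to 1 single-colour Agilent array. The authors deposited the scanner output, in which Feature Extraction (version 10.7.1.1 per the submitters' processing notes) gives each spot a background-subtracted intensity and quality flags, and a table of log2 values, which per the methods they quantile normalized. For the 3 lncRNAs the deposited log2 values and those computed here differed by at most 0.028. Groups came from the sample labels, and the 3 arrays of a group are separate mice, so p-values measure the spread between these arrays, in which animals, labelling and slide cannot be told apart.

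Spots marked as outliers were left out, the spots of a probe averaged, a floor of 1 set (no probe reached it) and log2 signals quantile normalized. Probes detected on all 3 arrays of a diet were kept (64467, or 70.7%). The diets were compared across all kept probes by limma 3.58.1 (two-sided, with eBayes moderation) in R 4.3.3, with Benjamini-Hochberg adjustment. Other values were computed in Python 3.11.15 with numpy 2.4.6 and pandas 2.3.3. The fit was tested on simulated data. Shared stretches of probes were found by exact matching of the probe sequences in the scanner output. Probes were named through the names in the study's lists of 354 lncRNAs and 357 mRNAs only, and the fold changes and p-values of those lists were not used.

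The 3 lncRNAs and all gene lists were chosen with earlier results of these data known. Genes named in the text are the 5 named probes most like each lncRNA by r, with and without diet means, the mRNAs the study ties to the 3, fixed gene lists and Nrp2, which was picked by its probe sequence. Alternatives were another normalization, normexp (offset 50), its parts apart, the log2 values of the authors, outlier spots kept, each array left out, the slide or the replicate number as a block, the methods' t-test, other filters and a 1.5-fold threshold. The number of arrays limits the precision.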

Additional observations from a re-analysis of the deposited data

How the results depend on the processing

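No difference changed direction under any of the 16 alternatives run for each lncRNA. Most moved the value by less than the spread between replicates, 15 of 16 for n297308, 16 of 16 for n297428 and 11 of 16 for FR384764. With the slide as a block n297308 went from 1.26 to 1.52. FR384764 went from 1.08 to 0.28 with normexp background correction, and in settings added after seeing the data to 0.45 with unsubtracted signals, 0.29 with normexp and the slide block together, 0.32 with only the offset of 50 added to the subtracted signals and 0.81 with normexp and no offset. The offset alone gave a fall close to that of normexp, and the settings with no offset also lowered the FR384764 difference. The cause of these changes was not tested. Leaving out each array in turn gave 1.12 to 1.37 for n297308, 0.81 to 1.23 for n297428 and 0.96 to 1.19 for FR384764. The 2-fold criterion was missed by n297428 (0.98) without normal diet replicate 1, by FR384764 (0.98) without normal diet replicate 2, and by n297428 (0.81) and FR384764 (0.96) without high-fat diet replicate 3. Over all kept probes 1909 met both criteria in either direction. The count was 319 with normexp, 688 with the methods' t-test, 986 for probes detected on all 6 arrays and 6099 at 1.5-fold. Leaving out an array gave 1137 (without normal diet replicate 1) to 5877 (without normal diet replicate 2, which leaves each slide with 1 diet). The mean percentile moved between 84.0 and 85.6 for n297308, 96.9 and 97.2 for n297428 and 40.5 and 42.4 for FR384764. With slide means in place of diet means removed, which leaves the diet contrast within slide 2 in the values, r was 0.913 for n297308 with n297428, 0.986 for n297308 with FR384764 and 0.911 for n297428 with FR384764. With diet means removed, r also moved with the processing. Scaling to the 75th percentile gave 0.640, 0.971 and 0.774 for these pairs in the same order, and normexp gave 0.675, 0.746 and 0.899.

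Replicate numbers did not pair the arrays. Deviations of same-numbered arrays correlated at -0.26, -0.20 and -0.03 over kept probes, and no array correlated best with its own number. With the replicate block the 3 differences stayed at 1.26, 1.06 and 1.08, with standard errors of 0.23, 0.23 and 0.24, and 2163 probes met both criteria.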

Other observations

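Of all probes detected on the 6 arrays, the one most like n297428 was an mRNA probe that the study lists without a gene symbol, chosen here after its values were seen. Its r with n297428 was 0.999, and the longest run its sequence shares with the n297428 probe is 6 bases. Its log2 signal was 12.81, 12.84 and 13.09 on the normal diet and 13.60, 13.77 and 14.37 on the high-fat diet, and the diet means were 1.00 apart. For n297308 the most alike probe of any name also had r = 0.999, with a log2 difference of 0.52, and for FR384764 r was 0.995 with a difference of 0.44. Pearson's r does not take the size of a difference into account.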
